A study of Mus musculus with 4 samples.

Results

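Neat1-rich alveolar type I (AT1) cells at postnatal day 15 (P15) were taken from 1 single-cell library of sorted mouse lung cells. Of its 2940 cells, 2645 had a level of Ager, an AT1 marker that encodes the receptor for advanced glycation end products, of at least 0.5 times the library median. The 20% of these with the highest Neat1 level, 529 cells, are called Neat1-rich, and the 529 cells with the lowest are called Neat1-poor. The whole series holds 9519 cells in 4 libraries, 1 per group, so the Neat1-rich cells are compared with other cells of their own library and no difference has a replicate check. AT1 cells at P3, P15 and P60 carried red fluorescence (Hopx-RFP) and surface Pdpn but neither the green label nor CD45, and alveolar type II (AT2) cells at P60 carried the green label without CD45. All groups share a genotype and treatment: the mice carried Sftpc-CreER, Rosa26-Zsgreen and Hopx-RFP on mixed FVB/C57BL6 stock and had received tamoxifen. Sftpc-CreER marks cells that use the AT2 gene Sftpc when tamoxifen is given, and Hopx-RFP marks cells that use the AT1 gene Hopx. The sources used here do not give the number of animals behind each library. Dissociation was enzymatic and dead cells were marked with DAPI, per the labels' protocols.

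AT1 cells are the thin, flat cells across which gas is exchanged. Neat1 and Malat1 are long noncoding RNAs that stay in the nucleus and are transcribed from neighbouring genes. Neat1 builds paraspeckles, nuclear bodies that hold RNA-binding proteins such as Nono and Sfpq, and Malat1 lies in nuclear speckles, where splicing factors collect. Neat1 has a short polyadenylated isoform and a long one that forms the paraspeckle core, and the long isoform, like Malat1, ends in a triple-helical RNA structure with a stretch rich in A in place of an added tail. Lars2 encodes the leucyl-tRNA synthetase of mitochondria.

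On the GRCm38 assembly both RNAs are read from the minus strand of chromosome 19, with Neat1 from 5824708 to 5845478 and Malat1 from 5795690 to 5802672, both annotated as lincRNA genes and 22035 bases apart. The libraries count transcripts near a 3′ end primed on A, so the transcript ends are shown here, 5′ to 3′, from the GENCODE transcripts of that assembly. The first is the last 100 bases of the short Neat1 isoform (chr19:5842307-5842406), with its polyadenylation signal in capitals.
Neat1 short isoform: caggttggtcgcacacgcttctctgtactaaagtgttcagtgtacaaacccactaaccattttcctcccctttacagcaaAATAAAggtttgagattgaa
The next pair are the last 100 bases of the long Neat1 isoform (chr19:5824708-5824807) and the 100 bases of Malat1 before its small mascRNA (chr19:5795982-5796081), with capitals for the 3 stretches, of 16, 13 and 11 bases, that they share.
Neat1 long isoform: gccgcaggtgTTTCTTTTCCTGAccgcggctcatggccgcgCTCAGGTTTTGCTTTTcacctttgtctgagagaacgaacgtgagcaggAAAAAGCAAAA
Malat1: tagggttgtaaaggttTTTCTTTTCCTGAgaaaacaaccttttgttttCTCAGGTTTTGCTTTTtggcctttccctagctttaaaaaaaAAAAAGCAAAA
The short isoform ends with the signal 20 bases before its end, and neither of the other windows holds AATAAA. The files give 1 value per gene, so UMIs (unique molecular identifiers, each counting 1 captured transcript) of both Neat1 isoforms are summed.

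The cells were chosen by their measured Ager and Neat1 levels, which are given as a description. The Neat1-rich cells held between 22.8 and 152 Neat1 UMIs per 10000, with a median of 36.0, against 0 to 3.31 and a median of 1.18 in Neat1-poor cells. In UMIs these were 4 to 55 per Neat1-rich cell (median 13) and at most 4 per Neat1-poor cell (median 1), of which 253 (47.8%) held none. The highest value left out of the Neat1-rich side was 22.8 per 10000, equal to its lowest value at this precision, and the lowest value above the Neat1-poor side was 3.32. The Ager limit stood at 165 per 10000, with 165.4 just inside and 164.9 just outside it. Summed over cells, Neat1 reached 3872 CPM (counts per 1000000 UMIs of a side) in Neat1-rich cells and 150 CPM in Neat1-poor cells.

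Both sides carried RNA of AT1 marker genes other than Ager, whose level the rule had used. The 23 AT1 identity genes, Ager among them and all measured, summed to 70286 CPM in Neat1-rich cells and 74163 CPM in Neat1-poor cells. Ager was the largest part of both sums, so their order is not a result about the other genes. Of the 23 genes 11 had a ratio above 0, beside 37.1% of all measured genes, and none lay 1.5-fold apart. Ager itself averaged lower in Neat1-rich cells, at 31431 CPM against 36331 CPM, a log2 ratio of -0.21. The water channel gene Aqp5 stood at 3117 CPM in Neat1-rich and 3717 CPM in Neat1-poor cells, a log2 ratio of -0.25. Among the others, Pdpn, the podoplanin gene, had a log2 ratio of -0.20 (1145 against 1313 CPM) and Hopx one of 0.03 (1222 against 1193 CPM).

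Neat1-rich cells held fewer UMIs, a higher share of UMIs from the mitochondrial genome and a lower share from ribosomal protein genes than Neat1-poor cells. Their UMI counts ran from 1438 to 11625 with a median of 3514, against 1434 to 14692 with a median of 4826, and they had 1597 and 2019 detected genes at the median. Thinned to 2000 UMIs per cell, the medians were 1066 and 1101 genes, after 61 Neat1-rich and 62 Neat1-poor cells of fewer UMIs were left out. The mitochondrial share had a median of 4.65% in Neat1-rich cells, with quartiles of 3.44 and 6.39%, and of 2.51% in Neat1-poor cells, with quartiles of 1.90 and 3.46%. A share above 5% was found in 230 Neat1-rich cells (43.5%) and 42 Neat1-poor cells (7.94%). The ribosomal protein share was 6.04% at the median of Neat1-rich cells, with quartiles of 4.78 and 7.19%, against 7.90% in Neat1-poor cells, with quartiles of 6.31 and 9.88%. Every one of these measures overlapped between the sides.

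**Figure D1:**
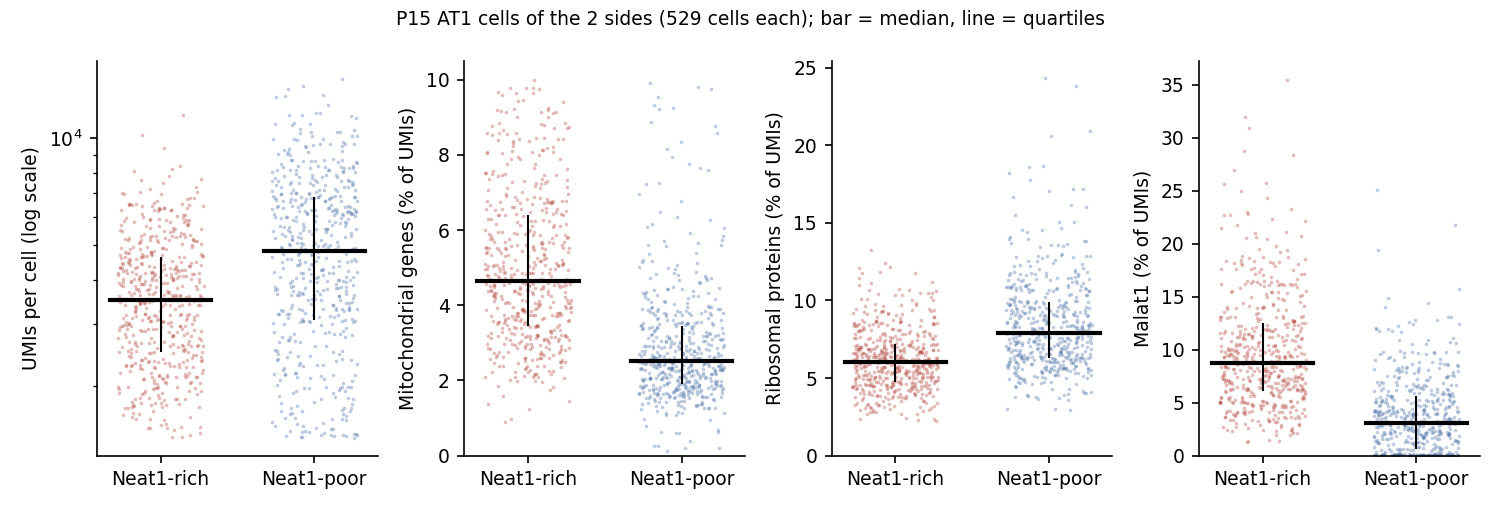
UMIs per cell on a log axis and the percent of UMIs from mitochondrial genes, ribosomal protein genes and Malat1 in the 529 Neat1-rich and 529 Neat1-poor AT1 cells at P15, with 1 point per cell, the median as a bar and the quartiles as a line. Median mitochondrial shares were 4.65 and 2.51%, and a layer of Neat1-poor cells lies at the bottom of the Malat1 panel.

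The absolute amounts moved apart by class. Mitochondrial UMIs per cell were higher in Neat1-rich cells (median 166 against 129), as were those of Malat1 (299 against 166), while ribosomal protein UMIs (209 against 385) and all other UMIs (2802 against 4053) were lower. With Neat1 and Malat1 taken out of the total, the mitochondrial share was 5.24% in Neat1-rich cells and 2.60% in Neat1-poor cells, and the ribosomal protein share 6.66 and 8.19%. Fewer transcripts of a kind and more of the rest cannot be told apart in shares. The files hold no cell above a mitochondrial share of 10.0% on either side, so cells above that level were not analysed here.

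The measures also did not move evenly with Neat1. Over 5 equal steps of Neat1, from the Neat1-poor to the Neat1-rich side, the median UMI count was 4826, 6277, 5730, 4908 and 3514. Both ends of the Neat1 order thus held smaller libraries than the steps between. The mitochondrial share was 2.51, 2.37, 2.56, 3.41 and 4.65% over the same steps and stood apart only in the upper ones. The ribosomal protein share was lower at each step, with 7.90, 7.12, 6.90, 6.57 and 6.04%, and the Malat1 share was higher at each, with 3.09, 5.44, 5.88, 7.05 and 8.77%.

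**Figure D2:**
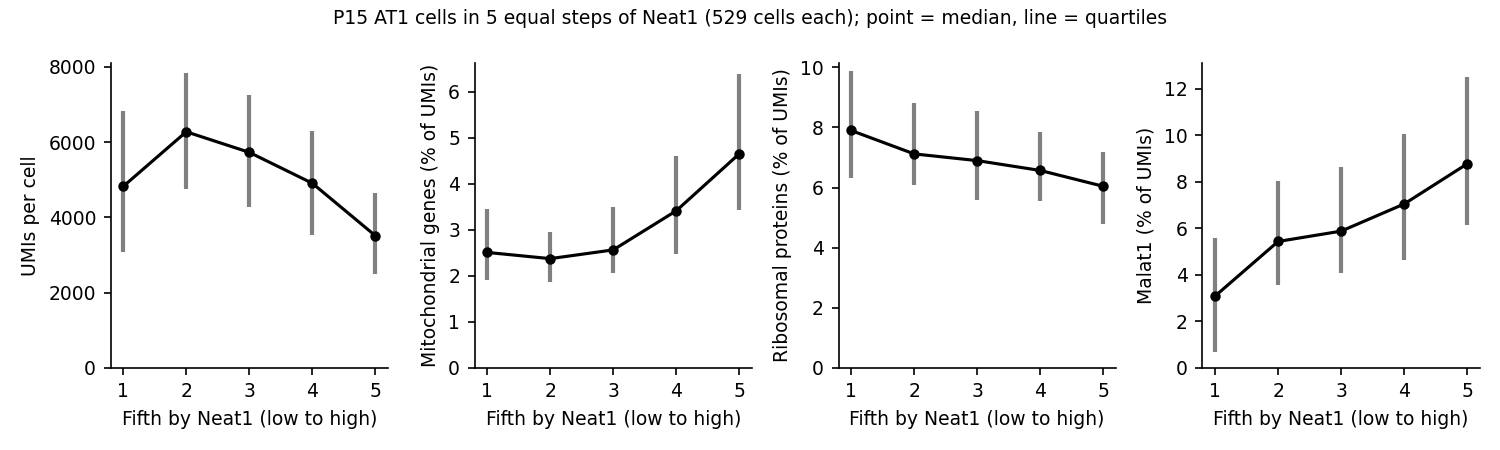
Median and quartiles of UMIs per cell and of the percent of UMIs from mitochondrial genes, ribosomal protein genes and Malat1, in 5 steps of 529 cells each from low to high Neat1 at P15. UMIs per cell were highest in the second step (6277) and lowest in the Neat1-rich step (3514).

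Part of the Neat1-poor side was almost without Malat1. Malat1 made up under 1% of UMIs in 0 of the 529 Neat1-rich cells and in 144 of the 529 Neat1-poor cells (27.2%), against 21, 8 and 6 in the steps between, and 34 of the 144 held no Malat1 UMI. These 144 cells had a median of 2705 UMIs, 3.72% mitochondrial and 8.88% ribosomal protein UMIs, and 130 of them held no Neat1 UMI. With cells under 1% Malat1 left out before the split, a limit set after the data were seen, 493 cells remained on each side, with median mitochondrial shares of 4.69 and 2.27% and UMI counts of 3494 and 5852. The differences in depth and mitochondrial share between Neat1-rich and Neat1-poor cells were thus as large without these cells. At P3, 1 of 578 Neat1-rich and 14 of 578 Neat1-poor cells were under 1% Malat1, and at P60 these cells numbered 0 of 238 Neat1-rich and 83 of 238 Neat1-poor cells.

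Across genes, Neat1-rich cells held more Malat1, more RNA of 20 of 28 splicing factors and nuclear speckle genes and of all 12 measured genes of the mitochondrial genome. They held less of 14 of 81 ribosomal protein genes, 4 of 19 translation factors and 3 of 18 proteasome subunits, with the median of each of these lists below that of all genes. A gene counted as measured with 50 CPM on the higher side and 30 UMIs over both, and as apart at 1.5-fold in CPM. Of 3284 measured genes, 218 were higher (6.64%), Neat1 among them, and 210 lower (6.39%) in Neat1-rich cells. The median log2 ratio was -0.12 over all measured genes, and 37.1% of them had a ratio above 0. As Neat1 chose the cells in these same libraries, the counts are descriptions, and the range in parentheses after a fold is its exact 95% interval for counting error alone. The share of the total taken by Malat1 bears on the split: with Neat1 and Malat1 out of the total, 279 genes were higher and 124 lower, and with ratios centred on the median gene, a shift of 0.12, these were 314 and 92. Ranking cells within 5 steps of mitochondrial share left 105 higher and 49 lower, and ranking within steps of UMI count 99 and 64. The ranking by mitochondrial share also evened the UMI counts, with medians of 4318 and 4387. Values under it, here and below, therefore cannot be assigned to mitochondrial share apart from depth.

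Malat1 and Lars2, the markers of these cells beside Neat1, were both higher. Malat1 took 93708 CPM in Neat1-rich cells and 43463 CPM in Neat1-poor cells, 2.16-fold (2.14 to 2.17), and 0.85 on the log2 scale remained without the cells under 1% Malat1, against 1.11 with them. Against the middle step by Neat1 in place of the Neat1-poor cells, the log2 ratio of Malat1 was 0.48, so less than the 1.5-fold limit. Lars2, a protein-coding gene on chromosome 9 from 123366927 to 123462666, plus strand, reached 112 CPM in Neat1-rich cells against 23.9 CPM in Neat1-poor cells, 4.70-fold (3.55 to 6.30). A Lars2 UMI was found in 31.2% of Neat1-rich and 10.6% of Neat1-poor cells. Over the 5 Neat1 steps Lars2 stood at 23.9, 16.9, 29.3, 54.0 and 112 CPM, so the upper steps carried the difference. Ranked within steps of mitochondrial share, the log2 ratio of Lars2 was 0.99 in place of 2.23, and it was 1.36 without cells over 5% mitochondrial UMIs. Neat1 aside, 3 nuclear noncoding RNAs of the list were measured, Malat1 among them. Kcnq1ot1, an antisense RNA of an imprinted locus, stood at 55.6 against 36.7 CPM, and Meg3, another imprinted RNA, at 100.1 against 87.8 CPM.

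Splicing factors and proteins of nuclear speckles were the protein-coding group with the most members higher. Of 29 listed genes 28 were measured, and 20 were higher and 0 lower in Neat1-rich cells, with a median log2 ratio of 0.83 against -0.12 over all genes. Pnisr, which encodes a serine and arginine rich nuclear protein, stood at 223 CPM in Neat1-rich cells and 77.2 CPM in Neat1-poor cells, 2.89-fold (2.45 to 3.42). Rsrp1, also of the arginine and serine rich kind, stood at 1092 CPM against 413 CPM, 2.64-fold (2.46 to 2.84). Clk1 (201 against 89.3 CPM) and Clk4 (96.6 against 41.9 CPM), kinases that phosphorylate splicing factors, were 2.25-fold and 2.31-fold higher, and Prpf4b, another splicing kinase, 2.41-fold. Son, a scaffold of nuclear speckles, had a log2 ratio of 1.08 and Luc7l3, of the U1 particle, one of 1.13. Srsf3 was the only measured member of the list below 0, with a log2 ratio of -0.29. The median of the list was 0.65 when cells were ranked within steps of mitochondrial share, 0.58 within steps of UMI count and 0.52 against the middle step, and stayed above 0 in all 18 alternatives that gave it.

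The rule for single genes, the largest ratios at 100 CPM, named the following beside splicing factors. Ttc14, a tetratricopeptide repeat gene, stood at 147 CPM in Neat1-rich cells and 50.7 CPM in Neat1-poor cells, 2.90-fold (2.36 to 3.58). Ogt, the enzyme that adds O-linked N-acetylglucosamine to nuclear and cytoplasmic proteins, reached 239 CPM against 92.2 CPM, 2.59-fold (2.22 to 3.04). The chromatin-associated gene Ankrd11 was 2.40-fold higher (103 against 43.0 CPM), Ccnt2, a cyclin of the transcription elongation kinase, 2.22-fold (117 against 52.9 CPM) and Pabpn1, the nuclear poly(A)-binding protein, 2.21-fold (124 against 56.2 CPM). Mat2a, which makes S-adenosylmethionine, was 2.23-fold higher (135 against 60.6 CPM). Arglu1, Zc3h7a and Leng8 completed the set at 2.23, 2.39 and 2.20-fold. Of the 11 measured chromatin regulators, 2 were higher and 0 lower, and all had ratios above 0 (median log2 ratio 0.37). Among all measured genes 6.64% were higher, 6.39% lower and 37.1% above 0. Whether the ratios of the chromatin regulators go with transcript length was not tested.

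The protein partners of Neat1 did not move with it as a group. Of 20 listed paraspeckle proteins 13 were measured, with 1 higher, 1 lower and a median log2 ratio of 0.05, above the -0.12 of all genes. Tardbp, which encodes the RNA-binding protein TDP-43, stood at 108 CPM in Neat1-rich and 72.0 CPM in Neat1-poor cells (log2 ratio 0.59). Hnrnpa1, a splicing repressor, was the lower one, at 54.6 against 103 CPM, or 1.88 times lower. Nono and Sfpq, the core proteins of the body, had log2 ratios of -0.27 and 0.05.

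All 12 measured protein-coding genes of the mitochondrial genome were higher in Neat1-rich cells, with a median log2 ratio of 0.89. mt-Nd4, a subunit of respiratory complex I, stood at 3993 CPM against 2043 CPM, 1.95-fold (1.89 to 2.02), and mt-Nd4l at 309 against 111 CPM, 2.79-fold (2.43 to 3.22). The smallest ratio was that of mt-Co1, a subunit of cytochrome c oxidase, at 0.77. The nuclear genes of the respiratory chain did not share this: of 34, all measured, 0 were higher and 2 lower, with a median of -0.15. Atp5b, a catalytic subunit of ATP synthase, stood at 460 CPM in Neat1-rich and 735 CPM in Neat1-poor cells (log2 ratio -0.68). Taken as 1 class, the mitochondrial genes had a log2 ratio of 0.84, and of 0.57 when cells were ranked within steps of UMI count.

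Genes of protein synthesis and turnover were lower. Of 81 measured ribosomal protein genes 0 were higher and 14 lower, and 80 of the 81 had ratios below 0, with a median log2 ratio of -0.36. Rplp0, a protein of the ribosomal stalk, stood at 507 CPM in Neat1-rich cells against 958 CPM in Neat1-poor cells, 1.89 times lower (1.76 to 2.04), and Rps4x at 440 against 861 CPM. Translation factors gave 0 higher and 4 lower of 19 (median -0.40), among them Eif3e (101 against 177 CPM) and the elongation factor Eef1a1 (922 against 1467 CPM). Proteasome subunits gave 0 higher and 3 lower of 18 (median -0.43), such as Psmd8 at 109 against 175 CPM. No antioxidant gene of 11 passed 1.5-fold, with a median of -0.36 and Prdx1, a peroxiredoxin, at 625 against 848 CPM. In each of these 4 lists most members lay below 0 and few passed 1.5-fold. Over all genes the median was -0.12 and only 37.1% lay above 0.

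Among measured genes the lowest ratios were those of Fosb (-2.03 on the log2 scale), Atf3 (-1.84), Cldn3 (-1.49) and Sftpd (-1.43). The ratio of Cldn3 depended on the ranking. It was -2.90 within steps of UMI count and -0.023 within steps of ribosomal protein share. The 15 lowest at 100 CPM also held tubulin and actin genes. Tuba1a and Tuba1b, which encode alpha tubulins, stood at 365 and 304 CPM in Neat1-rich cells against 739 and 632 CPM in Neat1-poor cells, 2.03 and 2.07 times lower. These genes are near-identical copies, and the sources used here do not say how their shared reads were counted. Actg1, the gamma actin of the cytoskeleton, stood at 1282 against 2522 CPM, 1.97 times lower (1.88 to 2.06), and was lower at each of the 5 Neat1 steps, from the Neat1-poor end 2522, 2440, 2241, 1768 and 1282 CPM. Of 21 measured actin cytoskeleton genes 0 were higher and 3 lower, with Tpm4 (172 against 288 CPM) and Arpc2 (407 against 635 CPM) beside Actg1. Nnat (96.1 against 205 CPM), Atp6v0d1, a subunit of the proton pump of lysosomes (82.4 against 158 CPM), Fnta, of the farnesyltransferase (76.9 against 144 CPM), Eif3i, of an initiation factor (64.7 against 121 CPM), Necap2, of endocytic coats (67.3 against 124 CPM), Glrx3, a glutaredoxin (61.7 against 114 CPM), Dbnl, which binds actin (79.4 against 144 CPM), and Grpel1, of the mitochondrial import motor (63.7 against 114 CPM), were 1.79 to 2.14 times lower.

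**Figure D3:**
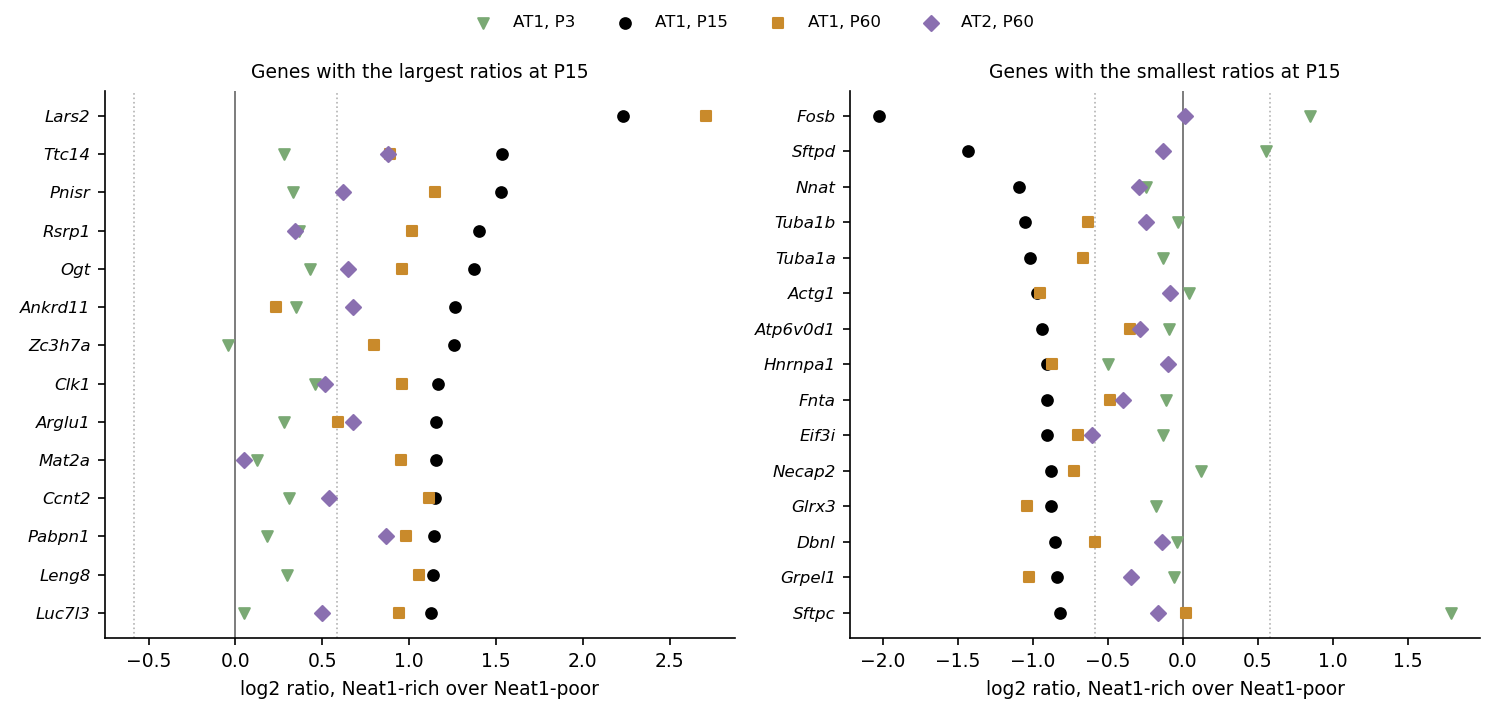
Log2 ratios of CPM in Neat1-rich over Neat1-poor cells for the genes with the largest and smallest ratios at P15, with 1 symbol per library where the gene was measured there and dotted lines at 1.5-fold. Fosb and Sftpc lie on opposite sides of 0 at P3 (0.85 and 1.79) and at P15 (-2.03 and -0.82).

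Few structural genes of the AT1 cell were called, beside 6.64% higher and 6.39% lower among all genes. Basement membrane genes gave 3 higher and 0 lower of 17 measured and 15 of 17 above 0 (median log2 ratio 0.40), beside 37.1% above 0 among all genes. The laminin genes Lama3 (454 CPM in Neat1-rich against 277 CPM in Neat1-poor cells), Lamb2 (381 against 252 CPM) and Lama5 (201 against 134 CPM) were the called members. Their longest annotated transcripts have 10548, 5629 and 11388 bases. In the longest of 5 equal steps of transcript length, which holds them, 17.0% of protein-coding genes without ribosomal protein genes were higher. Whether the laminin calls go with transcript length was not tested. Ranked within steps of mitochondrial share these 3 calls were lost, with log2 ratios of 0.31, 0.23 and 0.19, and the median of the list was 0.15. Col4a3, a basement membrane collagen of the alveolus, stood at 1188 against 874 CPM (log2 ratio 0.44). Caveola genes, abundant in AT1 cells, gave 0 called of 8 and a median of -0.30, with Emp2 alone above 0 (4751 against 3797 CPM). Among AT1 identity genes the ratios ran from -0.35 for Cldn18, a claudin of alveolar tight junctions (2431 against 3097 CPM), to 0.56 for Lmo7, an adherens junction protein (2685 against 1823 CPM). Vegfa, the growth factor that AT1 cells send to capillaries, stood at 1126 against 840 CPM (0.42). Of 16 tight junction and adhesion genes 1 was higher, Cgn, the cingulin gene (236 against 137 CPM), and 1 lower, Cldn3 (18.2 against 51.1 CPM). These 2 calls cannot be set apart from the shares among all genes. The AT1 identity median changed sign in 11 of 18 alternatives, between -0.13 and 0.44, so no direction is given for that list.

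Apart from the immediate early genes, stress genes gave few calls in either direction. Immediate early genes are switched on within minutes of a stimulus such as dissociation. They gave 0 higher and 4 lower of 16 measured in Neat1-rich cells (median log2 ratio -0.20), beside 6.39% lower among all genes. Fosb stood at 32.4 CPM against 132 CPM, 4.08 times lower (3.12 to 5.40), with a UMI in 10.0% of Neat1-rich and 34.4% of Neat1-poor cells, and Atf3 at 19.2 against 68.7 CPM. Fos stood at 337 against 561 CPM and Klf4 at 40.5 against 66.9 CPM. Ranked within steps of mitochondrial share, Fosb had a log2 ratio of -0.72 in place of -2.03, Atf3 one of -0.51 and Fos one of -0.058, so that the calls of Atf3 and Fos were lost, and the median of the list turned to 0.022. Within steps of UMI count Fosb stood at -1.19. Heat shock genes gave 0 higher and 1 lower of 9, Hspa8 (874 against 1385 CPM), p53 targets 0 of 4, hypoxia genes 0 higher and 1 lower of 6, Ldha (149 against 247 CPM), genes of the unfolded protein response 0 of 15 and interferon genes 0 of 10. Clock and glucocorticoid genes gave 1 higher of 9, Per1 (88.0 against 58.4 CPM). YAP and TAZ targets gave 1 lower of 11, Ajuba (53.6 against 80.5 CPM), and the insulin-like growth factor genes 1 higher of 6, Igf2r (61.7 against 40.4 CPM). In lists this short, 1 called gene cannot be set apart from the 6.64% higher and 6.39% lower among all genes.

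Surfactant genes of AT2 cells were low on both sides, and the ratio of Sftpc rested on few cells. Sftpd, the surfactant protein D gene, stood at 57.1 CPM in Neat1-rich and 154 CPM in Neat1-poor cells, and without the 5 cells with the most Sftpd UMIs on each side the log2 ratio was -1.34 in place of -1.43. It was -0.22, so under the 1.5-fold limit, against the middle step by Neat1 in place of the Neat1-poor cells. The lowest value among the alternatives was -1.91, within steps of mitochondrial share. Sftpc, the surfactant protein C gene, stood at 144 against 254 CPM, a log2 ratio of -0.82. Its 5 highest cells held 68.6% of the Sftpc UMIs of the Neat1-poor side, and without the 5 highest cells of each side the ratio was 0.34. Abca3, the lipid transporter of lamellar bodies, went the other way at 160 against 84.5 CPM (1.90-fold, 1.60 to 2.26). The AT2 identity list as a whole had 3 of 16 members measured.

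**Figure D4:**
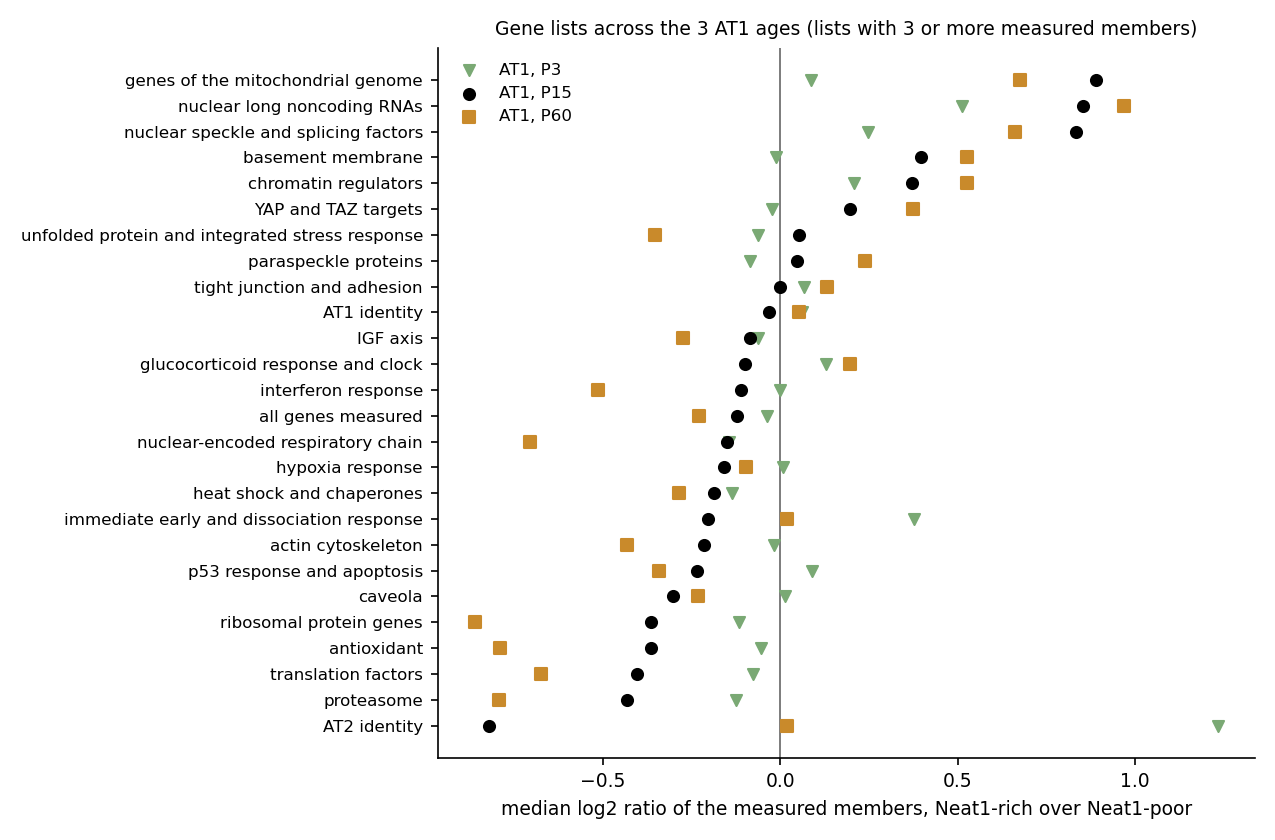
Median log2 ratio of CPM in Neat1-rich over Neat1-poor cells for each gene list with 3 or more measured members, at P3, P15 and P60. The mitochondrial genome and splicing factors lie above 0 at all 3 ages, as does the short list of nuclear noncoding RNAs, which holds Neat1 itself, and ribosomal proteins, translation factors and the proteasome below 0.

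Markers of other cell types, club and mesothelial ones apart, were near 0 on both sides. The 11 endothelial markers summed to 30.3 CPM in Neat1-rich and 52.9 CPM in Neat1-poor cells, against 2324 CPM in the 295 cells under the Ager limit, with Kdr at 0 in Neat1-rich cells. Fibroblast markers summed to 32.4, 35.6 and 9063 CPM and immune markers to 17.7, 12.9 and 1418 CPM in the same order of cells, with Laptm5, Fcer1g and Cd3e at 0 in Neat1-rich cells and Ptprc among 5 markers at 0 in Neat1-poor cells. 2 Neat1-rich and 5 Neat1-poor cells carried 3 or more markers of another type, and leaving all such cells out gave 221 genes higher and 217 lower. A UMI of Scgb1a1, a club cell gene, was found in 64.5% of Neat1-rich and 69.2% of Neat1-poor cells at 311 and 263 CPM. Club markers summed to 343 and 285 CPM on these sides and to 52000 CPM in the cells under the Ager limit, and their part in the results was not tested. The other lists summed to 3.03 against 1.47 CPM (lymphatic), 13.7 against 9.18 CPM (pericyte and smooth muscle), 7.59 against 13.2 CPM (ciliated), 27.3 against 0.735 CPM (platelet) and 475 against 363 CPM (mesothelial, nearly all of it Msln, at 469 against 360 CPM). Of the cell barcodes, 6 of the Neat1-rich and 7 of the Neat1-poor side were also present in another library. No doublet caller was run and no cell was removed as a doublet.

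The same split was made in the libraries that the choice of cells at P15 did not use. The levels at which Neat1 separated the cells differed: Neat1 stood at 1267 against 141 CPM (Neat1-rich against Neat1-poor) at P3, 3872 against 150 CPM at P15 and 5677 against 631 CPM at P60. Median mitochondrial shares were 2.24 against 2.08% at P3, 4.65 against 2.51% at P15 and 4.70 against 2.59% at P60. Median UMI counts were 6478 against 7900.5 at P3, 3514 against 4826 at P15 and 3323.5 against 5823 at P60. Median ribosomal protein shares were 18.97 against 20.62% at P3, 6.04 against 7.90% at P15 and 2.89 against 5.74% at P60. Neat1-rich cells were thus the shallower side at each age, and the mitochondrial share differed little at P3. Library, age, depth and Neat1 level cannot be told apart here, and none of the differences between ages was tested.

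At P3 the split gave few genes. Of 2943 measured genes 21 were higher (0.714%) and 6 lower (0.204%). Of the P15 genes, 128 of 147 higher ones had a ratio above 0 at P3, against 41.1% of all genes measured at both ages, and 139 of 182 lower ones had a ratio below 0, against 58.9%. Among them 1 and 0 passed 1.5-fold in the direction of P15, and the 1 was Malat1, at 53443 against 34650 CPM. Malat1 was also the only gene beside Neat1 higher by 1.5-fold at all 3 ages, and no gene was lower at all 3. Lars2 was low at P3, at 18.8 CPM in Neat1-rich and 21.0 CPM in Neat1-poor cells. Splicing factors gave 0 called of 27, with a median log2 ratio of 0.25. Across genes, which are not independent replicates, the log2 ratios at P15 had a Spearman correlation of 0.37 with those at P3 over 2696 genes and of 0.66 with those at P60 over 2994 genes, with depth and scaling to all UMIs shared by both sides of each comparison.

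At P60 most genes that were apart at P15 went the same way. Of 3518 genes measured there, 415 (11.8%) were higher and 981 (27.9%) lower in Neat1-rich cells. Of the 217 genes higher at P15 without Neat1, 194 were measured at P60. Of these 187 had a ratio above 0, against 34.4% of all genes measured at both ages. A further limit of 1.5-fold higher was passed by 115 of them (59.3%), against 9.12% of all genes measured at both ages. Of the 210 lower genes 174 were measured, 167 with a ratio below 0, against 65.6% of all. Of the 174, 126 were lower by 1.5-fold (72.4%), against 29.8% of all. With Neat1 and Malat1 out of the total the counts at P60 were 728 higher and 573 lower, and within steps of UMI count 132 and 215. Within those steps 41 of 179 higher and 45 of 173 lower genes of P15 passed 1.5-fold. Among all genes measured at P60 under that ranking, 3.87% were higher and 6.30% lower. Within steps of mitochondrial share 77 of 186 and 87 of 177 passed, beside 6.71% and 13.6% of all. Lars2 was 6.54-fold higher (5.35 to 8.04) at 590 against 90.2 CPM, with 20.9% of its Neat1-rich UMIs in 5 cells. Malat1 took 219503 against 114827 CPM. Splicing factors gave 15 higher and 0 lower of 28, mitochondrial genes 10 higher of 12, and ribosomal protein genes 74 lower of 82.

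Fosb was apart in opposite directions at P3 and P15. Fosb stood at 551 CPM in Neat1-rich and 306 CPM in Neat1-poor cells at P3, 1.80-fold higher (1.69 to 1.93), and at 32.4 against 132 CPM at P15. Sftpc stood at 2304 against 666 CPM at P3 and 144 against 254 CPM at P15, but without the 5 highest cells of each side the log2 ratios were 1.28 at P3 and 0.34 at P15, in the same direction. Those cells held 76.8% of the Neat1-rich UMIs at P3 and 68.6% of the Neat1-poor UMIs at P15. The AT2 identity list, which holds Sftpc, gave 7 higher and 0 lower of 10 measured at P3. Among all genes measured at P3, 0.714% were higher and 0.204% lower. How far few cells carry the calls of the list as a whole was not tested. In AT2 cells at P60, split by Neat1 with Sftpc in place of Ager, 46 of 2211 genes were higher (2.08%) and 12 lower (0.543%). Neat1 separated those 395 and 395 cells at 1103 against 27.9 CPM, with 340 of the Neat1-poor cells at 0. Of the genes higher at P15, 78 of 80 measured had a ratio above 0 in AT2 cells, against 43.5% of all genes measured in both, and 14 passed 1.5-fold. Of the lower ones 99 of 133 (74.4%) had a ratio below 0, against 56.5% of all, and 2 passed 1.5-fold. Malat1 stood at 57387 against 29689 CPM there, and 3 of 26 splicing factors were higher.

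Genes that were higher in Neat1-rich cells at P15 had longer transcripts, with a median longest transcript of 5.33 kb, against 2.14 kb for the lower genes and 3.00 kb for all. Of 3283 measured genes without Neat1, 3188 (97.1%) were matched to the GENCODE annotation by symbol. Protein-coding genes without ribosomal protein genes, 3063 at P15, were put in 5 equal steps of the longest annotated transcript. The percent higher in Neat1-rich cells was 0.653, 1.31, 4.73, 7.35 and 17.0 from short to long, and the percent lower 7.99, 10.9, 6.53, 2.78 and 2.12. By the span of the gene on the genome the percent higher was 2.28, 3.59, 5.71, 7.68 and 11.7. At P3, 19 such genes were higher in all. The percent higher by transcript length was 1.28, 0.366, 0.367, 0.733 and 0.733 at P3, so the order at P15 was not seen in these calls. It was seen in the median log2 ratio, which was highest in the longest step at both ages. From short to long this median was -0.093, -0.065, -0.049, -0.0021 and 0.10 at P3. At P15 it was -0.20, -0.27, -0.17, -0.0091 and 0.22. At P60 the percent higher by transcript length was 0.457, 1.98, 7.62, 18.3 and 30.3 and the percent lower 58.3, 36.7, 19.2, 11.6 and 3.81. Of genes with an annotated transcript that retains an intron 7.56% of 2011 were higher at P15, against 3.61% of 1052 genes without one. At P3 these were 0.450% and 1.15%, the opposite order, and at P60 they were 13.7% and 7.91%. Within each step of gene span at P15 genes with such a transcript were ahead. There the values ran from 3.61% against 0.712% in the shortest step to 12.8% against 8.93% in the longest. At P60 this order held in every step but the shortest (2.23% against 3.02%), with 28.2% against 22.0% in the longest. The difference was not tested at any age. Among long noncoding genes 7 of 14 lincRNAs other than Neat1 and 4 of 5 antisense and other long noncoding genes were higher, and 0 were lower. Genes are not independent replicates, and the files hold no counts per exon or intron.

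**Figure D5:**
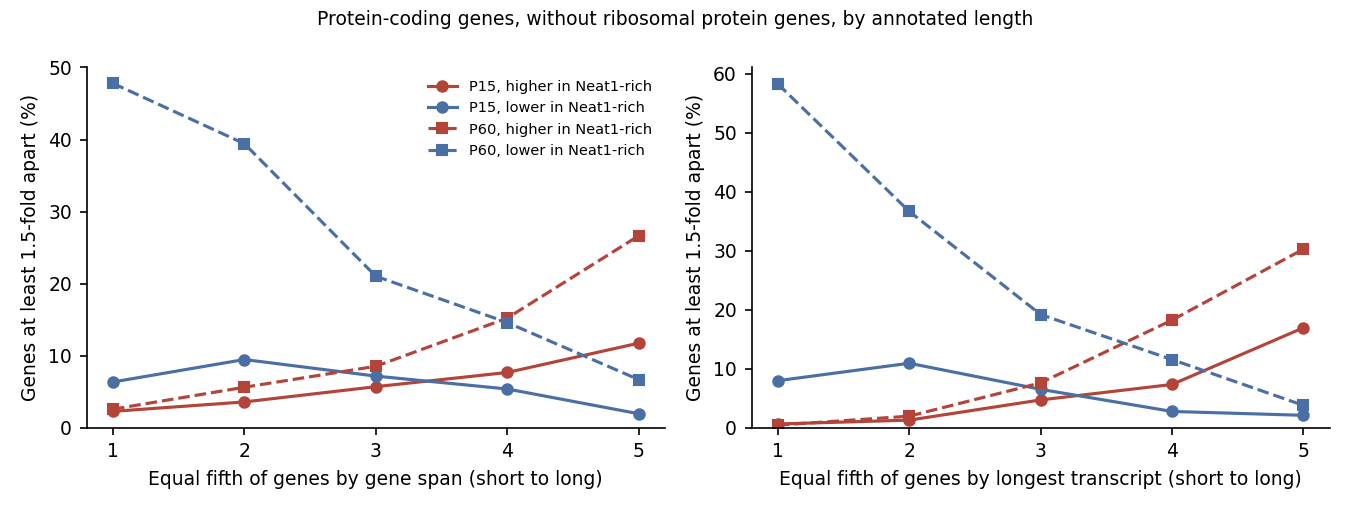
Percent of protein-coding genes at least 1.5-fold higher (red) or lower (blue) in Neat1-rich cells, in 5 equal steps of genes by span on the genome and by longest annotated transcript, at P15 (solid) and P60 (dashed). The percent higher at P15 was 0.653 in the step of shortest transcripts and 17.0 in that of the longest.

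Which of depth, mitochondrial share, Malat1 content and Neat1 itself the gene differences follow was not tested, and the values above are given beside them for that reason. Both rankings that follow draw on the same library and in part the same cells, so only the sizes of the ratios are given. Ranked within steps of mitochondrial share, where the median shares were 3.01% in Neat1-rich and 2.91% in Neat1-poor cells, 91 of 183 measured higher genes and 31 of 204 lower genes of P15 were still 1.5-fold apart. The median UMI counts under that ranking were 4318 and 4387, against 3514 and 4826 in the main split. Its median Neat1 level on the Neat1-rich side was 30.4 per 10000, against 36.0. Ranked within steps of UMI count, with medians of 4876 and 5035 UMIs, 95 of 187 and 53 of 208 were still apart. The median mitochondrial shares there were 3.91 and 2.47%, against 4.65 and 2.51% in the main split. Neither ranking thus changed 1 measure alone.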

How the data were processed

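The authors deposited 1 table per library with natural log values per gene and cell. The values unlog to a sum of 10000 per cell, so UMIs were scaled to 10000 per cell and 1 was added before the logarithm. Cell Ranger 1.3.1 and Seurat 2.0.0 and the builds mm10 and hg19 are named per the submitters' processing notes, and the role of hg19 is not stated there. Dividing each cell by its smallest step gave whole UMIs for 100% of values above 0 (tolerance 0.05). The P15 library held 15401939 UMIs and a median of 4928.5 per cell.

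The cells, markers and gene lists were chosen with earlier results of these data known, so no list or direction counts as independent evidence. UMIs were summed per side and scaled to CPM, and ratios were given with exact conditional Poisson intervals at 95%. With 1 library per group no test was made. For the log2 ratio a side with fewer than 3 counts was set to a floor of 3 counts. Genes named are the fixed markers, the 15 largest ratios in each direction at 100 CPM on the higher side, without ribosomal protein (pseudogenes included), mitochondrial, haemoglobin and provisional symbols, and up to 4 examples per list at 20 CPM. Gene positions come from GENCODE on GRCm38. Thinning and random splitting used fixed seeds, and the ratio and UMI steps were tested on simulated data. Python 3.11.15, numpy 2.4.6, pandas 2.3.3, scipy 1.17.1 and matplotlib 3.10.9 were used. The alternatives changed the total, the centring, the ranking, the cells kept and the limits for a call.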

Additional observations from a re-analysis of the deposited data

Results flagged for a closer look

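Some genes lay past 1.5-fold in opposite directions in Neat1-rich cells at P3 and at P15, and the difference between the ages was not tested. For Fosb the log2 ratio was 0.85 at P3 and -2.03 at P15. For Sftpc it was 1.79 and -0.82, for Sftpb 1.59 and -1.52, and for Sftpa1 1.76 and -1.05 at the same ages. At P15 Sftpb and Sftpa1 lay under 50 CPM on both sides and were not counted among the measured genes. At P15 the 5 highest cells held 68.6, 74.6 and 78.7% of the UMIs of Sftpc, Sftpb and Sftpa1 on the Neat1-poor side, and without the 5 highest cells of each side the ratios there were 0.34, 0.04 and 0.59. At P3 the ratios without those cells were 1.28, 1.10 and 0.83. For Fosb they were 0.84 at P3 and -2.20 at P15, with no more than 20.3% of the UMIs of a side in 5 cells.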

How the results depend on the processing

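The 218 genes higher and 210 lower, and log2 ratios of 0.84 for mitochondrial and -0.37 for ribosomal protein genes as classes, moved as follows, and where no construction is named the cause was not tested. With Neat1 and Malat1 out of the total, 279 genes were higher (69.2% of calls, against 50.9%) and 124 lower, with ratios of 0.93 and -0.29. With mitochondrial and ribosomal protein genes out as well these were 294 (73.0%), 109, 0.94 and -0.27, and centred on the median gene, a shift of 0.12, they were 314 (77.3%), 92, 0.96 and -0.25. Mean CPM per cell gave 0.79 and -0.44. Ranking within steps of UMIs gave 99 higher, 64 lower, 0.57 and -0.35; within steps of mitochondrial share, which evens it out by construction, 105, 49, 0.060 and -0.26. Thinning to 2000 UMIs gave 0.74 and -0.33, ranking on a random part of the UMIs 0.75 and -0.34, and ranking by Neat1 per UMI other than Neat1 and Malat1 -0.39 for ribosomal protein genes. Sides of 10% gave 400, 457, 0.79 and -0.56, and of 30% 121, 76, 0.78 and -0.29. Ager at or over the median gave 124, 110, 0.59 and -0.28, and no Ager minimum 400, 496, 0.78 and -0.62. Without cells over 5% mitochondrial share there were 98 lower, 0.47 and -0.32. Limits of 20 CPM gave 540 and 449 genes, of 100 CPM 100 and 120, no limit 910 and 694, and 2-fold 52 and 12, since these change which genes can be called.

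Some alternatives were chosen after seeing the data. Ranking within steps of ribosomal protein share, which evens it out by construction, gave 113 lower, 0.73 and 0.055. Leaving out cells under 1% Malat1 gave 0.99 and -0.33, and the middle step in place of the Neat1-poor cells 90, 89, 0.77 and -0.21. The split of AT2 cells was also added then.

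The log2 ratio turned above 0 for Sftpc with Ager at or over the median (0.79), without cells over 5% mitochondrial share (0.28) and against the middle step (0.15), for Sftpa1 within steps of ribosomal protein share (0.10), with Ager at or over the median (0.61) and against the middle step (0.76), for Sftpb against the middle step (0.46), and for Gstp1 on a random part of the UMIs (0.17). Marveld2 turned to -0.064 within steps of mitochondrial share. The AT2 identity median turned to 0.46, 0.28 and 0.15 under the settings of Sftpc. Of 123 named genes, 110 changed sign under none of 18 settings. Of the 85 at least 1.5-fold apart 80 did not and 18 stayed past 1.5-fold throughout. Each of these counts of genes holds Neat1, which the ranking itself sets apart. No paired analysis was possible because each group has 1 library, and for the same reason no replicate could be left out. Low counts limit genes under 50 CPM, and intervals cover counting error only.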
